A study of Mus musculus with 15 samples.

Results

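Direct-pathway striatal projection neurons were taken from single-cell RNA sequencing of mouse striatum after 28 to 29 days of antipsychotic treatment. Of 5581 deposited cells, 988 carried the authors' label neuron, and 381 of these were selected on their own UMI counts as direct-pathway cells (UMIs, unique molecular identifiers, are counted RNA molecules). The rule required more UMIs of Ppp1r1b, Rgs9 and Pde10a together than of the interneuron genes Sst, Npy, Nos1, Pthlh and Cox6a2 together. It also required a summed count of Drd1, Tac1 and Pdyn of at least 3, and at least 3 times the summed count of Drd2, Penk, Adora2a and Gpr6. Of 827 neurons that passed the first step, 337 met the mirror-image rule for indirect-pathway cells and 109 met neither.

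The study used 15 male C57BL/6J mice, an inbred strain, bought at 8 weeks of age and habituated for about 1 week. Haloperidol was given to 5 mice from implanted pellets, olanzapine to 5 mice in food, and placebo to 5 mice. The route of delivery therefore differed together with the drug, and their effects cannot be told apart. For each mouse 500 dissociated cells were loaded as a separate 10x Genomics 3' library, although up to 1189 cells per mouse were deposited. Direct-pathway cells numbered 12, 5, 74, 39 and 7 in haloperidol mice 1 to 5, 7, 11, 34, 32 and 73 in olanzapine mice 1 to 5, and 12, 15, 11, 17 and 32 in placebo mice 1 to 5. They held 1521457 UMIs in all, against 1368456 in indirect-pathway cells.

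Striatal projection neurons are GABA neurons that make up most of the striatum. The direct pathway runs to the substantia nigra and the inner globus pallidus and is associated with promoting movement. Its neurons carry the dopamine receptor D1 (Drd1), which couples to a stimulatory G protein and adenylyl cyclase, and release substance P (encoded by Tac1) and dynorphin (encoded by Pdyn). Indirect-pathway neurons carry the dopamine receptor D2 (Drd2) and an adenosine receptor (Adora2a) and release enkephalin (encoded by Penk). Haloperidol blocks D2 receptors strongly. Olanzapine blocks serotonin receptors as well as dopamine receptors.

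The upstream sequences of the 3 genes that chose the cells are shown because these genes define the neuron and the D1 receptor signals through cyclic AMP. They are the 250 bases before the most upstream RefSeq start on GRCm38.p6, given 5′ to 3′ on the gene's strand. They lie at chr13:54055659-54055908 (minus strand) for Drd1, chr6:7554811-7555060 (plus strand) for Tac1 and chr2:129699939-129700188 (minus strand) for Pdyn. Drd1 and Pdyn each had 2 listed starts, and the sequence before the other start was not searched. Capitals mark TGACG, the core of the cyclic AMP response element, found on either strand (CGTCA when it lies on the other strand).
Drd1: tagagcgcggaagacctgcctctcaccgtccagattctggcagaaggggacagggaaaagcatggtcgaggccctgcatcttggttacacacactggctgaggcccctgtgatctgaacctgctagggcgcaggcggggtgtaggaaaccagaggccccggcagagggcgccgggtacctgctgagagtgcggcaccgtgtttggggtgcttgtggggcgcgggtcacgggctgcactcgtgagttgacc
Tac1: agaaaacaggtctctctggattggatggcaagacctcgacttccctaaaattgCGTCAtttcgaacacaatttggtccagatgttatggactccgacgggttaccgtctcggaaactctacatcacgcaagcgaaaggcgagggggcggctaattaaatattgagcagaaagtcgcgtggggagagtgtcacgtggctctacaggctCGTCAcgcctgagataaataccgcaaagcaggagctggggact
Pdyn: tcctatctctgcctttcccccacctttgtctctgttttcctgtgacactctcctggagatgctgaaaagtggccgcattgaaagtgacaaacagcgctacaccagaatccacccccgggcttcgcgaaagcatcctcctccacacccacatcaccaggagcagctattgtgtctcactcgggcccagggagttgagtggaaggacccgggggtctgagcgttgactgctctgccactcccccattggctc
The Tac1 stretch held 2 matches, at 197 to 193 and at 43 to 39 bases before the start, both on the opposite strand. The Drd1 and Pdyn stretches held 0, and the full palindrome TGACGTCA was in none of the 3. Among 32851 RefSeq promoters of the same length, TGACG on either strand was in 17.8% and TGACGTCA in 1.55%. These matches are letters only, and no binding was measured.

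Several features of the libraries bear on all results and were found after the data had been seen. Placebo 5 shared 110 cell barcodes with placebo 3 and 101 with placebo 2, and 109 and 101 of those pairs had the same class label, while any other pair of libraries shared at most 2. Of the direct-pathway cells, 43 were in such pairs, and leaving out the placebo 5 copies left 362. The libraries also fell into 2 sets that no label names. In cells other than neurons, Arf6 and Srsf2 together stood at 94.7 to 128 CPM (counts scaled to a fixed library total) in 6 libraries (haloperidol 1 and 4, olanzapine 2, 4 and 5, placebo 4) and at 255 to 418 CPM in the other 9. Of 4817 genes with at least 500 UMIs outside neurons, 32 were lower in every one of those 6 libraries than in all others and 0 were higher. Tmem158, a gene of projection neurons, stood at 173 to 680 CPM in the direct-pathway cells of the low set and at 1233 to 3500 CPM in those of the high set, in mice with at least 10 such cells. Results below are given with and without the shared cells and within the library sets where these change them.

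The cells were checked against the genes that define them. Because these genes chose the cells, their levels are a description without a test. Tac1 was seen in 99.5% of direct-pathway cells (exact 95% interval 98.1 to 99.9%), against 6.82% of indirect-pathway cells and 2.35% of astrocytes. Drd1 was seen in 71.4% of direct-pathway cells (66.6 to 75.9%), against 2.37% of indirect-pathway cells and 0.247% of astrocytes, and Pdyn in 47.8% (42.7 to 52.9%), against 0.890% of indirect-pathway cells and 0.370% of astrocytes. Penk was seen in 15.0% of direct-pathway cells, against 99.4% of indirect-pathway cells and 4.20% of astrocytes. Median depth was 3483 UMIs in direct-pathway cells, 3246 in indirect-pathway cells and 2221 in astrocytes. Ppp1r1b (DARPP-32, the dopamine-regulated inhibitor of protein phosphatase 1) was seen in 88.2% of direct-pathway and 85.8% of indirect-pathway cells, but also in 34.9% of astrocytes.

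**Figure D1:**
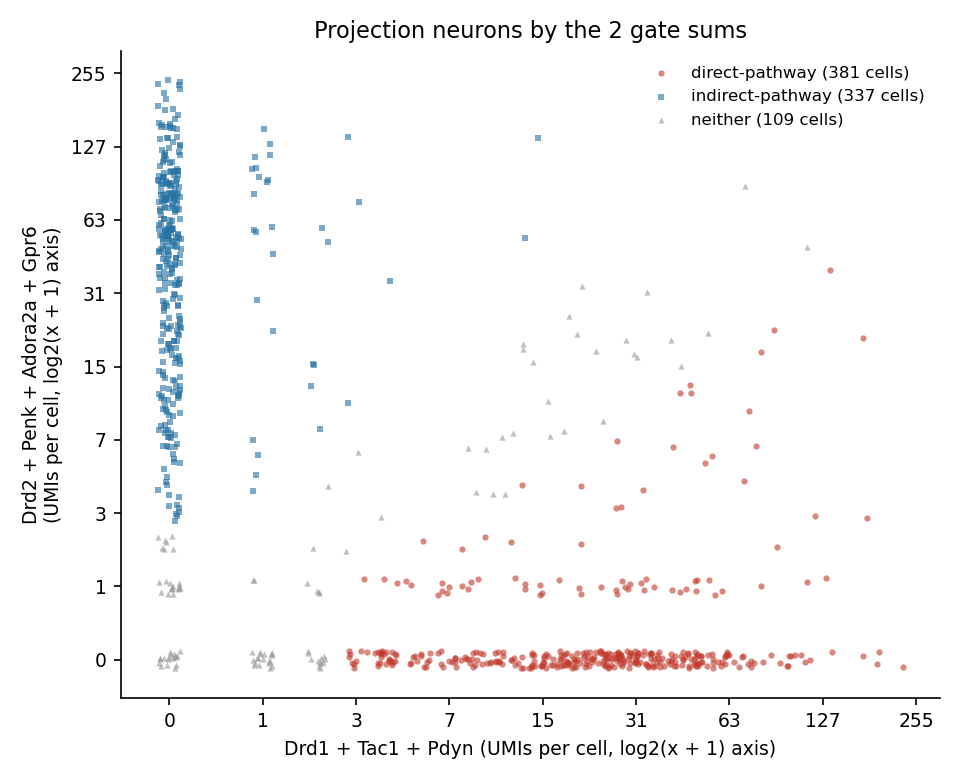
Each point is 1 of the 827 striatal projection neurons that passed the first step, placed by its summed UMIs of Drd1, Tac1 and Pdyn (direct-pathway sum) and of Drd2, Penk, Adora2a and Gpr6 (indirect-pathway sum). The 381 direct-pathway and 337 indirect-pathway cells lie along the 2 axes, and 109 cells met neither rule.

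Most direct-pathway cells lay far inside the rule. Their direct-pathway sum had a median of 24 UMIs and ranged between 3 and 242, and 308 of the 381 had no UMI of any indirect-pathway gene. At the edge, 10 cells had a sum of exactly 3, and 12 projection neurons with a sum of 2 and no indirect-pathway UMI were left out. Likewise 6 cells had a sum under 4 times the indirect-pathway sum, and 9 neurons at 2 to under 3 times were left out. Tac1 weighed most in the choice: 369 cells had at least 3 UMIs of Tac1, 109 of Drd1 and 86 of Pdyn, and these counts overlap. With Tac1 left out, 183 of the 381 cells still met the rule on Drd1 and Pdyn. All 3 genes were seen together in 137 cells, Drd1 and Tac1 without Pdyn in 134, Tac1 alone in 65, Tac1 and Pdyn without Drd1 in 43, Drd1 and Pdyn without Tac1 in 1 and Pdyn alone in 1.

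Genes outside the rule were then compared between direct-pathway and indirect-pathway neurons of the same mice. Counts were summed per mouse and kind, 11 mice had at least 10 cells of each, and edgeR's quasi-likelihood test with the mouse as a block was run on 1893 genes. At an adjusted p under 0.05, 22 genes differed (1.16% of those tested), 10 higher in direct-pathway neurons (0.528%) and 12 lower (0.634%). The genes that were higher include those for a channel subunit and for proteins of mitochondria and of the endoplasmic reticulum. Those that were lower include an alpha and a beta subunit of the guanylyl cyclase that nitric oxide activates. In such sums fewer cells with a transcript and less of it per cell cannot be told apart. All levels in the next paragraphs are CPM of direct-pathway and indirect-pathway neurons over these 11 mice, as lowest, median and highest, and all differences are log2 fold changes of direct over indirect with their standard error (SE).

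The 3 tested identity genes of the direct pathway were all called higher, Asic4 and Sfxn1 among them. Asic4 (chr1:75450436-75474343, plus strand), a member of the acid-sensing ion channel family, stood at 171, 311 and 604 CPM in direct-pathway neurons and at 0, 10.8 and 108 CPM in indirect-pathway neurons. The groups did not overlap, and the difference was 3.66 (SE 0.25, adjusted p = 1.04e-15, higher in 11 of 11 mice). Sfxn1 (chr13:54071869-54108342, plus strand), a mitochondrial serine transporter, stood at 116, 165 and 354 CPM against 0, 44.4 and 139 CPM in indirect-pathway neurons, which overlap slightly (log2 fold change 1.93, SE 0.27, 11 of 11 mice). The other 14 identity genes in the table had too few counts to pass the filter. Among them, the transcription factor Ebf1 had 260 UMIs in 39.1% of direct-pathway cells and 7 UMIs in 0.297% of indirect-pathway cells. Slc35d3, a transporter-family protein, had 174 UMIs in direct-pathway cells and 0 in indirect-pathway cells, which is at least 52.2-fold higher with a floor of 3 counts over all indirect-pathway cells. Isl1, a transcription factor of developing direct-pathway neurons, had 92 UMIs against 8 in indirect-pathway cells. Without the filter on low counts, 6 of these 14 genes were called higher and 0 lower, against 40 higher and 45 lower among all 14237 genes. Others of the 14 did not separate the kinds. Reln was higher in 7 and lower in 4 of 11 mice, Htr1b higher in 3 and lower in 8, and Gng2 higher in 1 and lower in 5.

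Outside the identity list, Wfs1 was the leading gene of direct-pathway neurons. Wfs1 (chr5:36966104-36989205, minus strand), which encodes wolframin of the endoplasmic reticulum, stood at 232, 344 and 602 CPM against 64.2, 134 and 278 CPM in indirect-pathway neurons. The ranges overlap only at their edges, and Wfs1 was higher in 11 of 11 mice (log2 fold change 1.24, SE 0.19, adjusted p = 4.24e-05). Lrpap1, a chaperone of the LDL receptor family, stood at 604, 849 and 1444 CPM against 246, 510 and 773 CPM in indirect-pathway neurons (log2 fold change 1.00, SE 0.14, 11 of 11 mice). Foxp2, a transcription factor of projection neurons, was higher by 1.05 (SE 0.25) in 10 of 11 mice, and Nefl, the light neurofilament chain, by 1.04 (SE 0.21) in 10 of 11. Smaller differences were those of Mctp1 (0.81, SE 0.16), Mgst3 (0.74, SE 0.16) and Itm2b (0.48, SE 0.12), each higher in 11 of 11 mice.

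**Figure D2:**
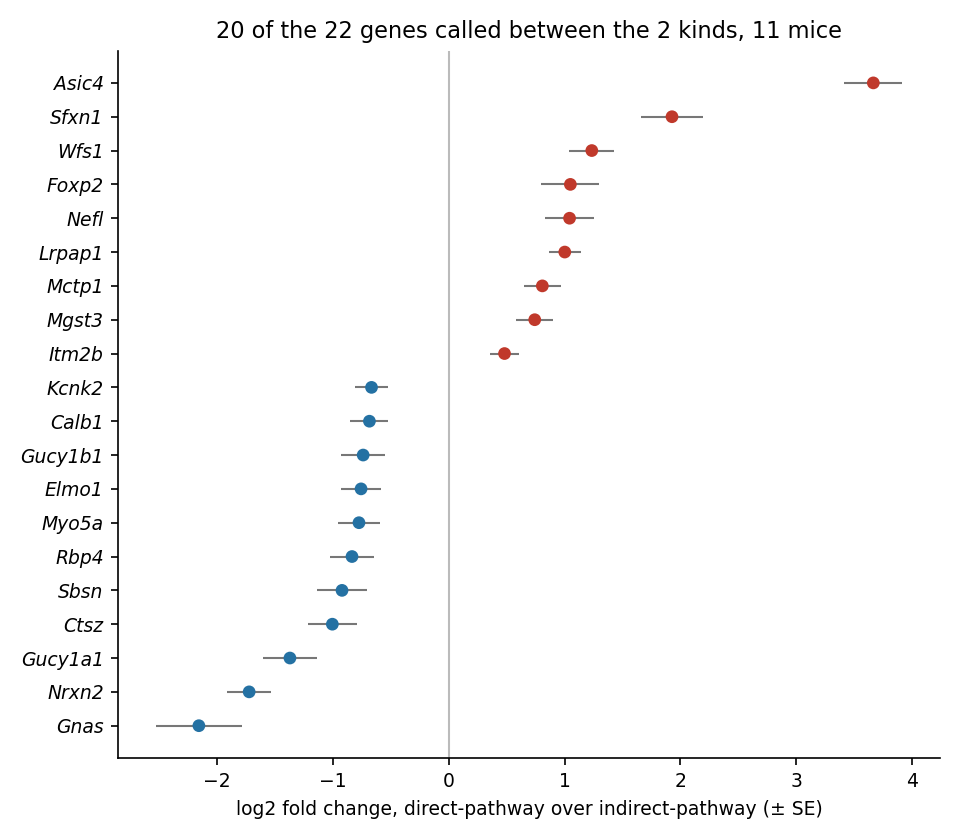
The log2 fold change of direct-pathway over indirect-pathway neurons, with its standard error, is drawn for 20 of the 22 genes called by edgeR in 11 mice. It runs between 3.66 for Asic4 and -2.15 for Gnas, with 9 genes above 0 and 11 below.

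After Gnas, Nrxn2 and Gucy1a1 led the lower side. Nrxn2 (chr19:6418731-6544169, plus strand), a presynaptic adhesion protein, stood at 28.6, 92.2 and 187 CPM in direct-pathway neurons against 182, 275 and 403 CPM in indirect-pathway neurons (log2 fold change -1.72, SE 0.19, lower in 11 of 11 mice). Gucy1a1 (chr3:82092427-82145789, minus strand) and Gucy1b1 encode those 2 subunits of soluble guanylyl cyclase. Gucy1a1 stood at 11.5, 77.5 and 201 CPM against 80.6, 202 and 307 CPM in indirect-pathway neurons and was lower in 11 of 11 mice (-1.37, SE 0.23), and Gucy1b1 was lower in 10 of 11 (-0.74, SE 0.19, adjusted p = 0.032). A potassium channel was also lower. Kcnk2 (chr1:189207930-189402273, minus strand), the background channel TREK-1, stood at 162, 439 and 622 CPM against 394, 710 and 830 CPM in indirect-pathway neurons (-0.66, SE 0.14, 11 of 11 mice). Ctsz, the lysosomal protease cathepsin Z, stood at 41.3, 92.7 and 167 CPM against 86.3, 148 and 268 CPM in indirect-pathway neurons and was lower in 10 of 11 mice. Other lower genes were Sbsn (-0.92), Rbp4 (-0.83), Myo5a (-0.77), Elmo1 (-0.76) and the calcium buffer Calb1 (-0.68).

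Gnas (chr2:174284320-174346744, plus strand), the stimulatory G protein alpha subunit, stood at 14.3, 95.9 and 289 CPM in direct-pathway neurons against 121, 372 and 1412 CPM in indirect-pathway neurons. It was lower in 10 of 11 mice (log2 fold change -2.15, SE 0.37, adjusted p = 0.010). This value moved with the library sets: Gnas differed by -3.55 in the 5 mice of the low set and by -1.58 in the 6 mice of the high set, and outside neurons it stood at 144 to 298 CPM in the low set and 458 to 1059 CPM in the high set. Other annotated transcripts, Nespas on the opposite strand among them, overlap Gnas. The strand setting of the counting is not given in the sources used here, so its reads cannot be told apart from theirs. Opposite-strand neighbours also overlap Nefl (Nefm) and Ctsz (Nelfcd).

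**Figure D3:**
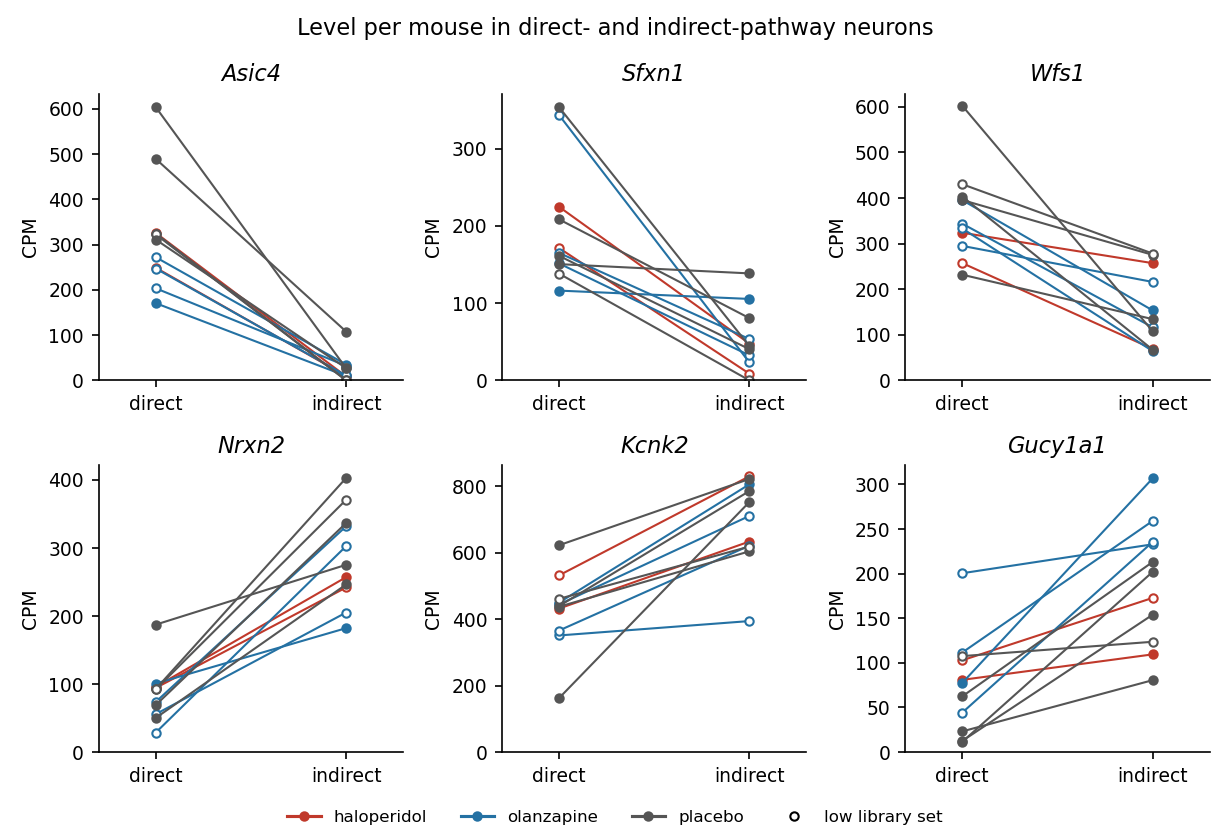
CPM of 6 genes outside the selection rule is plotted for each of 11 mice, direct-pathway neurons on the left and indirect-pathway neurons of the same mouse on the right, joined by a line, with the drug as colour and open points for the low library set. Asic4 does not overlap between the kinds, Sfxn1 and Wfs1 are also higher in direct-pathway neurons of all 11 mice, and Nrxn2, Kcnk2 and Gucy1a1 are lower in all 11.

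Of all 1893 genes tested between the kinds, 1.16% were called, and most genes of the D1 receptor cascade and of projection neuron function were not. In lists this short, counts of 0 or 1 cannot tell a list apart from all genes. Of 27 tested members of the D1 receptor cascade outside the rule, 0 were called higher and 1 lower (Gnas), with a median log2 fold change of -0.15 against 0.01 over all genes tested. Of 23 tested genes shared by both kinds, 1 was called higher (Foxp2) and 1 lower, with a median of -0.14. Of 9 matrix genes, 1 was called higher (Wfs1) and 1 lower (Calb1). No member was called among 11 genes of neuropeptide processing, 13 GABA genes, 15 glutamate receptor and postsynaptic genes or 12 mitochondrially encoded genes. Arpp21, a cyclic AMP-regulated phosphoprotein of both kinds, had 1594, 2248 and 3038 CPM against 1461, 2584 and 3368 CPM in indirect-pathway neurons (-0.14, adjusted p = 0.857). Of 3 tested indirect-pathway identity genes, 1 was called lower (Gucy1a1), while Scg2 (-0.01) and Rgs4 (-0.14) were not. The other 13 in the table had too few counts to pass the filter. Without the filter, 7 of these 13 were called lower and 0 higher, against 45 lower and 40 higher among all 14237 genes.

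Of the 22 calls, 11 held when any 1 mouse was left out, among them Asic4, Gnas, Kcnk2, Lrpap1, Mctp1, Mgst3, Nrxn2, Sfxn1 and Wfs1. Nefl and Gucy1a1 were called wherever they passed the filter. Without haloperidol 3, Calb1, Ctsz, Foxp2, Gucy1b1 and Rbp4 lost their calls, with adjusted p between 0.0574 and 0.134, and without olanzapine 5, Ctsz, Elmo1, Gucy1b1, Itm2b and Sbsn did, between 0.0530 and 0.128. Sbsn also lost its call without haloperidol 4, and Myo5a did without olanzapine 2. Foxp2, Itm2b, Gucy1b1 or Calb1 lost theirs without haloperidol 4, olanzapine 2, 3 or 4, or placebo 1 or 5 as well, with adjusted p up to 0.136. By DESeq2, Nefl, Mgst3, Ctsz, Sbsn, Rbp4, Myo5a, Elmo1, Gucy1b1 and Calb1 were not called, with adjusted p between 0.0533 and 0.658, and the other 13 were. Without the shared cells of placebo 5, all 22 were called again. In the low library set alone 22 of 22 had the same direction and 11 were called, and in the high set alone 20 of 20 tested had the same direction and 9 were called. Markers of other cells were low in both kinds: 8 astrocyte markers together stood at 0, 47.8 and 115 CPM against 0, 67.3 and 556 CPM in indirect-pathway neurons, and 8 microglia markers at 25.1, 51.4 and 217 CPM against 15.4, 53.3 and 288 CPM in indirect-pathway neurons. Their part in the differences was not tested.

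Direct-pathway neurons also varied among themselves in Pdyn, and this comparison was added after the data had been seen. Pdyn was seen in 182 of the 381 cells, with a median depth of 3844 UMIs, and not seen in 199 cells, with a median depth of 3220 UMIs. Depth therefore moved with the split, and a cell without a Pdyn UMI may still hold the transcript. Counts were summed per mouse for the 2 sets of cells in 11 mice with at least 5 cells of each, and 853 genes were tested by edgeR with the mouse as a block. Of these, 9 differed (1.06%), 6 higher in cells with Pdyn (0.703%) and 3 lower (0.352%).

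Wfs1 differed most. It stood at 344, 517 and 1025 CPM in cells with Pdyn, as lowest, median and highest over 11 mice, against 0, 110 and 343 CPM in cells without Pdyn. The groups did not overlap, and Wfs1 was higher in 11 of 11 mice (log2 fold change 1.85, SE 0.27, adjusted p = 1.81e-04). Scg2 (chr1:79434669-79440120, minus strand), the granin secretogranin II of peptide vesicles, stood at 510, 1111 and 3949 CPM against 383, 492 and 1292 CPM in cells without Pdyn (0.99, SE 0.20, 9 of 11 mice). Nnat (chr2:157560078-157562522, plus strand), neuronatin of the endoplasmic reticulum, stood at 0, 307 and 1507 CPM against 0, 70.5 and 374 CPM in cells without Pdyn (1.27, SE 0.30, 10 of 11 mice), and Blcap overlaps it on the opposite strand. The ranges of Scg2 and Nnat overlap widely between the 2 sets of cells. Tsc22d1, a TSC22-family regulator, was higher by 0.82 (SE 0.15), Rprml by 0.90 (SE 0.21) and Ly6h, of the family that modulates nicotinic receptors, by 0.56 (SE 0.13).

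On the lower side, Pcp4 (chr16:96467606-96525793, plus strand), a small regulator of calmodulin, stood at 2091, 4172 and 10529 CPM in cells with Pdyn against 4360, 8790 and 14276 CPM in cells without Pdyn. It was lower in 10 of 11 mice (log2 fold change -0.83, SE 0.16, adjusted p = 0.00441), and an annotated gene on the same strand, Igsf5, overlaps it. Ntm, the adhesion protein neurotrimin, was lower by a log2 fold change of -0.66 (SE 0.16) in 10 of 11 mice. Among listed genes, the call on the matrix list was Wfs1, that on the striosome list Nnat, and that on the peptide processing list Scg2. Over all 853 genes 0.703% were called higher, and 1 call on a list is no result about a compartment. Wfs1, Pcp4 and Tsc22d1 held their calls whichever mouse was left out. Without placebo 1 only these 3 were called, and Ly6h, Nnat, Ntm, Rprml and Scg2 lost their calls. Of these 5, 1 to 4 also did without haloperidol 3 or 4, olanzapine 3, 4 or 5, or placebo 3, 4 or 5, with adjusted p up to 0.152. Without haloperidol 4 there were 4 calls, and without haloperidol 3 or placebo 3 there were 5. Leaving out the shared cells gave 10 calls, each library set alone gave 3, and using only cells with at least 2000 UMIs gave 11.

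**Figure D4:**
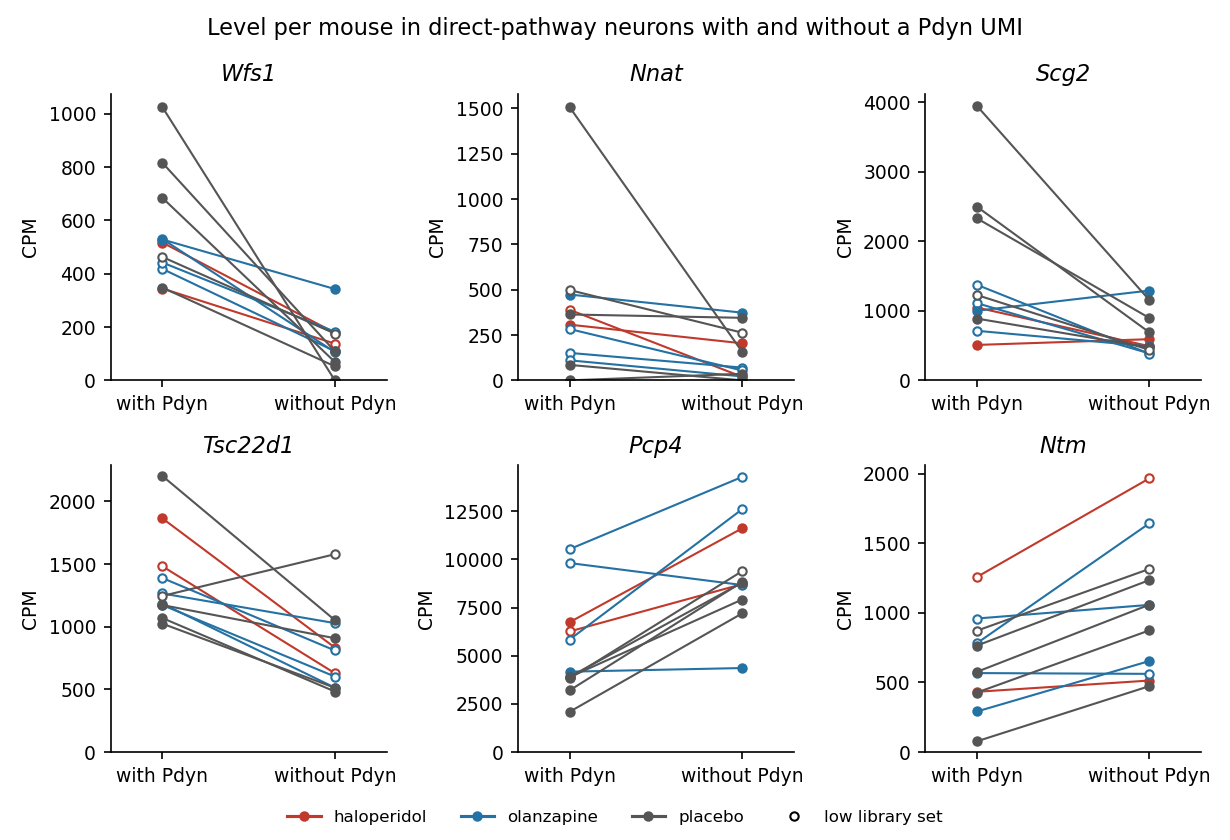
CPM of 6 genes is plotted for each of 11 mice, direct-pathway cells with a Pdyn UMI on the left and those without on the right, joined by a line, with the drug as colour and open points for the low library set. Wfs1 is higher with Pdyn in all 11 mice, Nnat and Tsc22d1 in 10 and Scg2 in 9, while Pcp4 and Ntm are lower in 10.

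Direct-pathway cells made up 55.0 ± 8.14% of direct- and indirect-pathway cells in haloperidol mice, 51.3 ± 11.8% in olanzapine mice and 49.2 ± 13.1% in placebo mice (SD, n = 5 each). By an exact two-sided permutation test over mice, no pair of groups passed the threshold, with an adjusted p = 0.817 for each of the 3. As a share of all neurons they made up 38.3 ± 7.01% in haloperidol mice, 36.5 ± 7.16% in olanzapine mice and 35.6 ± 10.7% in placebo mice (SD, n = 5 each). These differences lie within the spread between mice. In the low library set the shares of both kinds were 57.4 and 63.2% in haloperidol mice, 35.5, 47.1 and 62.4% in olanzapine mice and 63.0% in the placebo mouse. In the high set they were 41.7, 53.8 and 58.7% in haloperidol mice, 47.9 and 63.6% in olanzapine mice and 27.9 to 55.6% in 4 placebo mice.

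For expression, 3 haloperidol, 4 olanzapine and 5 placebo mice had at least 10 direct-pathway cells, with 42217 to 321639 UMIs per mouse. In the edgeR fit of 2151 genes, 0 genes were called for haloperidol against placebo (0%), for olanzapine against placebo (0%) or for haloperidol against olanzapine (0%). At an unadjusted p under 0.05 there were 80, 218 and 56 genes for the 3 comparisons in that order. DESeq2 likewise called 0 in each, with 159, 328 and 82 genes at an unadjusted p under 0.05. With the library set as a term edgeR again called 0 in each (69, 238 and 78 at an unadjusted p under 0.05), and so it did without the shared cells of placebo 5. The genes below were named by the smallest p or as members of lists, and none passed the adjusted threshold. Genes of small p tend not to overlap between groups, so a lack of overlap below is a description and no added support. Its share among all 2151 genes is not given here. Values per mouse are CPM in the order haloperidol 1, 3 and 4, olanzapine 2, 3, 4 and 5, and placebo 1 to 5. Both drugs were set against the same placebo mice.

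The 3 genes of smallest p for olanzapine against placebo were Arpp19, Slmap (log2 fold change 2.12, SE 0.53, adjusted p = 0.185) and Map1a. Arpp19 (chr9:75037614-75060313, plus strand), a cyclic AMP-regulated inhibitor of protein phosphatase 2A, had 614, 1123 and 618 CPM in haloperidol mice, 1331, 753, 757 and 1084 CPM in olanzapine mice, and 350, 428, 519, 352 and 522 CPM in placebo mice. Each mouse on either drug was above each placebo mouse, yet neither difference passed the test (olanzapine 1.16, SE 0.28, adjusted p = 0.185; haloperidol 0.89, SE 0.30, adjusted p = 0.998). Map1a (chr2:121289600-121310832, plus strand), a microtubule-associated protein that overlaps Ppip5k1 on the opposite strand, had 225, 126 and 84.7 CPM in haloperidol mice, 333, 205, 94.6 and 109 CPM in olanzapine mice, and 61.8, 62.9, 22.6, 61.2 and 34.1 CPM in placebo mice. These groups did not overlap with placebo either (olanzapine 1.76, SE 0.44, adjusted p = 0.185; haloperidol 1.40, SE 0.48, adjusted p = 0.998). With the library set as a term the olanzapine values were 1.32 for Arpp19 (adjusted p = 0.198) and 1.80 for Map1a.

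Further genes separated olanzapine from placebo mice without passing the test. Lypd1 (chr1:125867622-125913101, minus strand), a modulator of nicotinic receptors, had 231, 251, 150 and 183 CPM in olanzapine mice and 268, 503, 564, 444 and 329 CPM in placebo mice (-1.06, SE 0.30, adjusted p = 0.292), and 184, 195 and 390 CPM in haloperidol mice. C1qtnf4 (chr2:90885860-90890525, plus strand), a secreted protein related to complement C1q, had 266, 485 and 178 CPM in haloperidol mice, 101, 68.4, 166 and 118 CPM in olanzapine mice, and 206, 302, 586, 260 and 170 CPM in placebo mice. All olanzapine mice were below all mice of both other groups (-1.35, SE 0.36, adjusted p = 0.228 against placebo). Homer1 (chr13:93299635-93405129, plus strand), a postsynaptic scaffold whose short form is induced by activity, had 203, 205, 173 and 183 CPM in olanzapine mice and 124, 62.9, 113, 91.8 and 90.9 CPM in placebo mice (1.02, SE 0.33, adjusted p = 0.357). Among direct-pathway identity genes, Asic4 had 275, 167, 244 and 203 CPM in olanzapine mice and 597, 491, 316, 321 and 307 CPM in placebo mice (-0.89, SE 0.29, adjusted p = 0.357), again without overlap. Ppp1ca, the catalytic subunit of protein phosphatase 1, had 593, 441, 402 and 368 CPM in olanzapine mice and 247, 176, 338, 184 and 307 CPM in placebo mice (0.84, SE 0.28, adjusted p = 0.357).

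For haloperidol the smallest p was that of Kcnab1 (chr3:65109384-65378223, plus strand), an auxiliary subunit of potassium channels. It had 369, 204 and 229 CPM in haloperidol mice and 82.4, 75.5, 158, 153 and 79.5 CPM in placebo mice (1.22, SE 0.35, adjusted p = 0.998). Rasd2 (Rhes, a striatal small GTPase) had 184, 297 and 169 CPM in haloperidol mice and 41.2, 126, 0, 138 and 114 CPM in placebo mice (1.30, SE 0.42, adjusted p = 0.998). Qpct, the enzyme that closes the amino end of some peptides, had 81.9, 74.9 and 33.9 CPM in haloperidol mice and 124, 214, 90.2, 184 and 136 CPM in placebo mice (-1.27, SE 0.44, adjusted p = 0.998). None of the 3 overlapped between the groups, and none passed. Between the drugs the smallest p was that of C1qtnf4 (haloperidol over olanzapine 1.52, SE 0.37, adjusted p = 0.417). Adcy5, the main adenylyl cyclase of striatum, had 901, 767 and 940 CPM in haloperidol mice and 405, 411, 630 and 736 CPM in olanzapine mice (0.64, SE 0.29, adjusted p = 0.963).

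**Figure D5:**
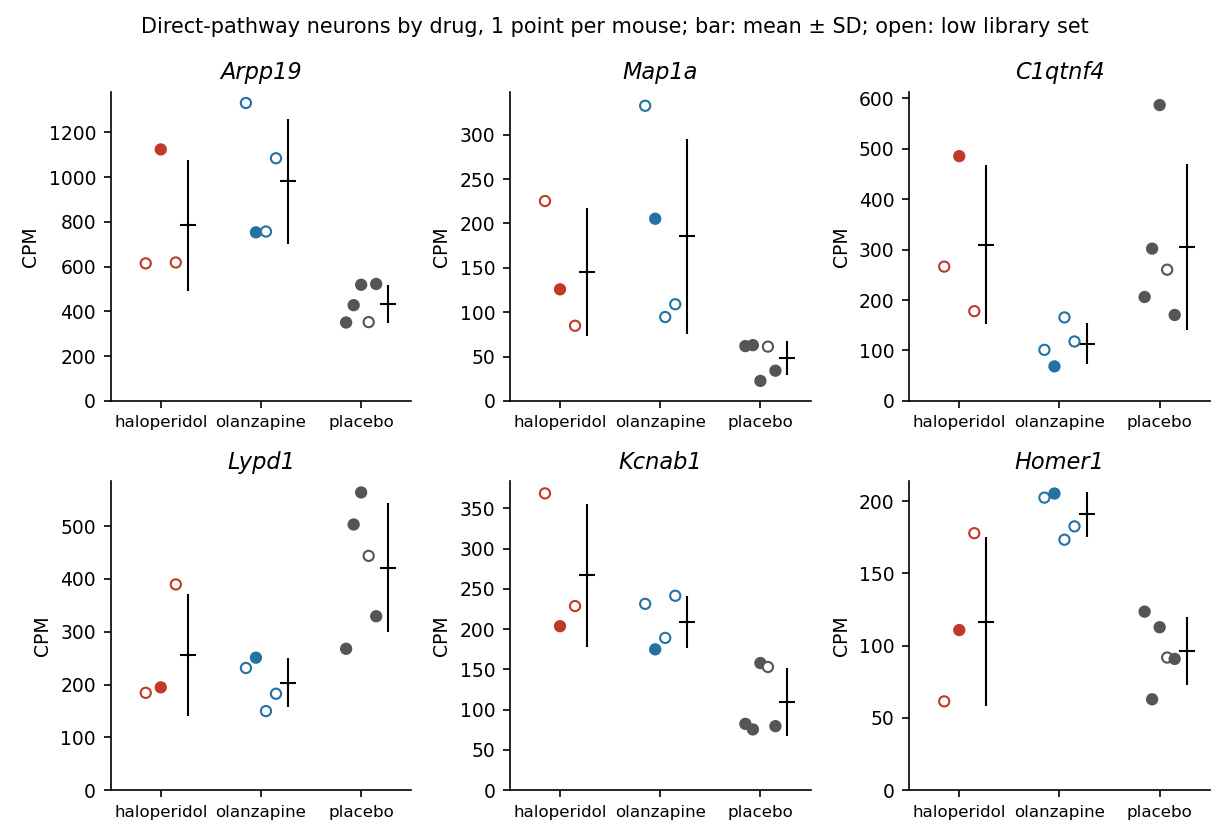
CPM of 6 genes in direct-pathway neurons is plotted for each of 3 haloperidol, 4 olanzapine and 5 placebo mice, with the mean and SD as a bar. Open points are libraries of the low set. Arpp19 and Map1a lie above all placebo mice on both drugs, and C1qtnf4 and Lypd1 lie below all placebo mice on olanzapine, while no gene passed the adjusted threshold.

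As lists, 0 members were called in any drug comparison, so only counts of sign and medians can be given. Of 11 genes of neuropeptide processing and secretory granules, 10 were lower in haloperidol mice (median log2 fold change -0.35, against -0.03 over all genes) and 11 in olanzapine mice (median -0.67, against -0.02 over all genes). Among these 11, the carboxypeptidase Cpe differed by -0.67 in olanzapine mice, and Vgf, a granin-like peptide precursor, by -1.51 in haloperidol and -1.10 in olanzapine mice. Of 29 genes of the D1 receptor cascade, 21 were higher in haloperidol mice (median 0.23) and 19 in olanzapine mice (median 0.36). Of 12 mitochondrially encoded genes, 12 were higher in haloperidol mice than in placebo mice (median 0.44) and 12 higher than in olanzapine mice (median 0.34), while 9 were higher in olanzapine than in placebo mice (median 0.09). The median mitochondrial share of UMIs per direct-pathway cell, a sign of cell quality, was 7.38, 4.24 and 6.22% in these haloperidol mice, 4.19, 5.16, 5.81 and 4.39% in olanzapine mice and 4.55, 4.90, 1.70, 6.22 and 4.62% in placebo mice, and its part was not tested. Only 5 of the listed immediate early genes passed the count filter. Of these 5, 1 was higher and 4 were lower in haloperidol than in placebo mice (median -0.27). In olanzapine mice 4 were higher than in placebo mice (median 0.51). Junb, lower in haloperidol than in placebo mice, had a log2 fold change of 0.65 with at least 5 cells per mouse. Summed interneuron markers outside the rule stood at 105 to 136 CPM in haloperidol mice, 28.9 to 297 CPM in olanzapine mice and 122 to 261 CPM in placebo mice, and their part in these values was not tested.

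The genes that chose the cells differed between groups as follows, without a test. Their CPM are UMIs over the plain sum of the cells' UMIs, without TMM, unlike the CPM above. Ppp1r1b had 1319, 1808 and 1392 CPM in haloperidol 1, 3 and 4, 2360, 1292, 1384 and 1971 CPM in olanzapine 2 to 5, and 825, 1241, 1042, 996 and 1018 CPM in placebo 1 to 5. Rgs9, which speeds the return of G proteins to rest, had 483, 493 and 539 CPM in the same haloperidol mice, 547, 445, 469 and 501 CPM in the olanzapine mice and 402, 385, 379, 444 and 441 CPM in the placebo mice. For both genes neither drug group overlapped with placebo in mice with at least 10 cells, although for Rgs9 the lowest olanzapine and the highest placebo mouse were nearly level. The mice with fewer cells lay elsewhere. Haloperidol 2, with 5 cells, had 325 CPM of either gene, and haloperidol 5, with 7 cells, had 1029 CPM of either, which for Ppp1r1b is inside the placebo range. Olanzapine 1, with 7 cells, had 1572 CPM of Ppp1r1b and 818 CPM of Rgs9. Pde10a, the other projection neuron gene of the rule, overlapped with placebo on both drugs in mice with at least 10 cells. It had 1423 to 1672 CPM in haloperidol mice, 1137 to 1687 CPM in olanzapine mice and 1161 to 1570 CPM in placebo mice. To look at Drd1, Tac1 and Pdyn without their own selection, they were measured in all projection neurons with no UMI of an indirect-pathway gene. That set is still chosen on other genes of the rule, and the part of this choice in the differences was not tested. There Pdyn had 239, 431 and 370 CPM in haloperidol 1, 3 and 4, 96.1, 166 and 252 CPM in olanzapine 3, 4 and 5, and 352, 496, 553 and 441 CPM in placebo 1, 2, 4 and 5. These 3 olanzapine mice lay below the 4 placebo mice without overlap, by -1.45 on the log2(CPM + 10) scale. With mice of at least 5 such cells included, the difference was -0.80. In the direct-pathway cells of the rule the groups overlapped, with 403 CPM in olanzapine 2 (11 cells) and 755 CPM in olanzapine 1 (7 cells), against 402 CPM in placebo 1. In those cells olanzapine 3, 4 and 5 had 219, 299 and 270 CPM, and placebo 2, 4 and 5 had 645, 674 and 441 CPM. The exact permutation p of the difference of -1.45 was 0.0571, the smallest that 3 against 4 mice allows, and 0.429 after adjustment over 9 comparisons. Within the low library set Pdyn had 166 and 252 CPM in olanzapine mice and 553 CPM in the placebo mouse, and within the high set 96.1 CPM in the olanzapine mouse and 352 to 496 CPM in placebo mice. Without the shared cells of placebo 5 the difference was -1.34. Tac1 differed by -0.73 and Drd1 by -0.76 in olanzapine mice and overlapped with placebo, with an adjusted p of 0.429 for both by the same exact test. The Drd1 difference was -0.19 without olanzapine 3 and -1.36 without olanzapine 5, and that of Tac1 was -0.95 to -0.45 when 1 mouse was left out.

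Finally, the drug response of direct-pathway neurons was set against that of indirect-pathway neurons, in 2 haloperidol, 4 olanzapine and 5 placebo mice and 3412 genes. By edgeR, 0 genes were called for a different response to haloperidol (0%) or to olanzapine (0%), with 152 and 170 at an unadjusted p under 0.05. DESeq2 also called 0 in both, with 99 and 122, and edgeR with the library set as a term called 0 in both. In simulated counts, a 2-fold difference in response was called for 2.5% of changed genes for haloperidol and 8.5% for olanzapine. At 4-fold the values were 63.5% and 73.5%. A lack of calls therefore does not show that responses were alike. Mir670hg, a host transcript of microRNA genes, had the smallest p. In direct-pathway neurons it had 18.4 and 8.71 CPM in haloperidol mice and 40.6, 38.1, 89.0, 62.0 and 57.3 CPM in placebo mice, and in indirect-pathway neurons 215 and 165 CPM in haloperidol mice and 26.8, 0, 0, 61.3 and 54.2 CPM in placebo mice. Its response differed by -4.54 on the log2 scale (SE 0.99, adjusted p = 0.094). It passed the threshold without doublets and cells of high mitochondrial content (adjusted p = 0.0157), with a sum and ratio of 5 in the rule (0.0310), without olanzapine 2 (0.0140), without placebo 2 (0.0357) and with no filter on low counts (0.00298). Pcp4 had 9724 and 7497 CPM in direct-pathway neurons of haloperidol mice and 4850, 5391, 5961, 4992 and 6029 CPM in those of placebo mice, while in indirect-pathway neurons it had 4253 and 3706 CPM in haloperidol mice and 2825, 7161, 6867, 4718 and 6729 CPM in placebo mice. The difference in response was 1.09 for haloperidol (SE 0.29, adjusted p = 0.430) and 0.91 for olanzapine (SE 0.23, adjusted p = 0.698).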

How the data were processed

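Single-cell RNA libraries of 15 mice were used as 1 deposited table of raw UMI counts for 15932 genes and 5581 cells, in which the authors also gave each cell its mouse, drug and class. The submitters' processing notes name Cell Ranger, Seurat and mm10 (GRCm38) without saying which versions or settings were used. Deposited cells held at least 501 genes and 621 to 40783 UMIs (median 2746). Series libraries held 241677 to 4329163 UMIs. Gene positions are from GENCODE M21.

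Cells were chosen on raw counts by the rule given above. The members, the gene lists and the Pdyn comparison were chosen with earlier results of these data known. Counts were summed per mouse and kind, with at least 10 cells per mouse and kind (5 for Pdyn), and tested with edgeR 4.0.16 under R 4.3.3 (genes kept by filterByExpr, TMM, robust quasi-likelihood F test, two-sided, Benjamini-Hochberg adjustment over all genes tested, threshold 0.05). The mouse was a block between kinds, and all 3 groups entered 1 fit for drugs. CPM values of genes tested by edgeR, and of summed markers, are the deposited counts per scaled library after TMM. Those of the rule's own genes, and those that describe the library sets (Arf6, Srsf2 and Tmem158, and Gnas outside neurons), are over the plain UMI sum. DESeq2 1.42.0 was an alternative. Shares, and gate genes in projection neurons without an indirect-pathway UMI, were compared by exact permutation (scipy 1.17.1) on percent or on log2(CPM + 10). Exact (Clopper-Pearson) intervals for shares of cells cover counting error only. Doublets were called with Scrublet in scanpy 1.11.5 (81 cells, 1.45%) and removed, with cells over 20% mitochondrial UMIs, only as an alternative; 4 and 3 direct-pathway cells were affected. The scripts were tested on simulated counts. There, a 2-fold change was called for 85.5% of changed genes between kinds, and a 4-fold change for 77%. The 2-fold change was called for 31% for haloperidol against placebo, 47.5% for olanzapine against placebo and 32% for haloperidol against olanzapine. The 4-fold change was called for 90, 91.5 and 94% in the same order. Simulated mice shared 1 mean profile, and genes of like level had the same spread, so real rates may be lower. Some called genes are counted but not reported by name here.

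Between kinds, the named genes are up to 10 called per direction by fold change with a mean log2 CPM of at least 5, called list members, and the 3 highest genes of each identity list. For drugs they are the 10 genes of smallest p where fewer than 10 were called, and up to 4 members of 6 lists by smallest p. For differences in response they are the 5 of smallest p. The sets of libraries and the shared barcodes were found after the data had been seen. Mice are separate animals and separate libraries, numbered within a group in order of deposit.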

Additional observations from a re-analysis of the deposited data

Results flagged for a closer look

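Among 127 gene and group combinations checked for a mouse far from the rest of its group, 2 stood out, and chance alone gives about 1 in 20 groups. In direct-pathway neurons of olanzapine mice, Pcdh9, a protocadherin, stood at 335 CPM in olanzapine 3 and at 127 to 158 CPM in the other 3. Pcsk2, a prohormone convertase, stood at 654 CPM in olanzapine 3 and at 1048 to 1122 CPM in the other 3. Olanzapine 3 is the only one of these 4 mice in the high library set.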

How the results depend on the processing

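No paired analysis was possible for the drug comparisons because the labels number the mice singly across the groups. Between kinds and between cells with and without Pdyn the mouse was the block. Without that block, 11 genes were called between kinds (all 11 among the 22) and 1 by Pdyn. Leaving out 1 mouse gave 15 to 29 calls between kinds and 3 to 13 by Pdyn. With no filter on low counts there were 85 calls between kinds, 18 by Pdyn, 4 for olanzapine against placebo (Slmap 2.27, Map1a 1.89, Arpp19 1.31 and Dqx1) and 3 for the difference in haloperidol response (Mir670hg, Crh and Vgf). In the high library set alone there were 9 calls between kinds and 3 by Pdyn, and in the low set alone 3 by Pdyn and 1 for haloperidol against olanzapine (Gm42418, 2.40). DESeq2 called 30 genes between kinds, 13 of them shared with edgeR. With a sum and ratio of 5 in the rule, olanzapine against placebo had 1 call (Lypd1, -1.67, adjusted p = 0.0160) and the haloperidol difference 2 (Mir670hg and Vgf). In fits of both kinds, leaving out mice 1 to 4 of the labels' numbering removed only olanzapine 2, so the 2 settings were 1 fit. The haloperidol difference had 1 call (Mir670hg) without doublets and cells of high mitochondrial content. With 1 mouse left out it had 0 to 2 calls: 1 without olanzapine 2 (Mir670hg) and 2 without placebo 2 (Mir670hg and Crh). Likewise olanzapine against placebo had 0 or 1, the 1 (Gnas, -3.20) without olanzapine 3, and haloperidol against olanzapine 0 or 1, the 1 (C1qtnf4, 1.81, adjusted p = 0.0148) without haloperidol 4. The haloperidol against placebo count stayed at 0 in every alternative run, and so did the olanzapine difference in response. With at least 20 cells per mouse a single placebo mouse was left, and that setting was not run against placebo. The causes of these changes were not tested.

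Small differences changed sign. For shares among both kinds, olanzapine minus placebo was -1.64 percentage points with a rule of 5 and -4.14 with neurons thinned to 1500 UMIs, and -3.20 to 6.07 with 1 mouse left out; haloperidol minus olanzapine was -0.293 to 6.98. For shares of neurons, haloperidol minus placebo was -2.10 when thinned and -1.73 to 4.82 with 1 mouse left out. Olanzapine minus placebo was -1.49 with a rule of 5, -2.34 when thinned and -3.56 to 2.99 with 1 left out, and haloperidol minus olanzapine -0.0645 to 4.26. In projection neurons without an indirect-pathway UMI, Drd1 in haloperidol minus placebo was 0.19 with at least 5 cells, 0.12 with at least 2000 UMIs and -0.25 to 0.097 with 1 mouse left out, and Tac1 in haloperidol minus olanzapine -0.16 to 0.55. Between kinds Scg2 was 0.021 with at least 5 cells, 0.011 with at least 20, 0.061 with a rule of 5, 0.0021 without mice 1 to 4, 0.13 in the high set, 0.029 without the block, 0.0035 with at least 2000 UMIs and -0.14 to 0.095 with 1 mouse left out. Rgs4 was 0.0036 with at least 20 cells, 0.046 in the low set and -0.26 to 0.051. Arpp21 was 0.051 in the low set. Spock3 was 0.019 with at least 5 cells, 0.20 with at least 20, 0.061 without doublets, 0.12 with a rule of 5, 0.057 without mice 1 to 4, 0.047 with at least 2000 UMIs and -0.20 to 0.057. For haloperidol against placebo, Junb was 0.65 and Cacng3 0.010 with at least 5 cells. With 1 mouse left out Junb was -0.58 to 0.051, Htr2c -0.58 to 0.18 and Dlg2 -0.92 to 0.027. For haloperidol against olanzapine, Ebf1 was -0.0055 in the low set and Junb 0.15 with at least 5 cells. Cnr1 in olanzapine against placebo was -0.65 to 0.078 with 1 mouse left out. Over all alternatives other than leaving out a single mouse, 1201 values of named genes kept direction and side of the threshold, 78 lost their call, 8 gained one and 20 changed sign.

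Drug values rest on 11 to 74 direct-pathway cells and 42217 to 321639 UMIs per mouse. Drug groups were split unevenly over the library sets (2 of 3 haloperidol, 3 of 4 olanzapine and 1 of 5 placebo mice in the low set), so part of a drug difference cannot be told apart from that split.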
